A study of Mus musculus with 14 samples.

Results

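The regions described here are stretches of chromatin that lost accessibility after protein synthesis was blocked and that lie inside annotated genes. They were taken from the authors' deposited list of 454 lost regions by asking whether the centre of a region fell within the span of any RefSeq gene of mouse assembly GRCm38, and 236 did. Together with 734 gained regions the authors listed 1188 regions in all. The cells were E14, a mouse embryonic stem cell line grown in serum with LIF, and all groups share that background. Accessibility was measured by ATAC-seq, in which a transposase cuts and tags open DNA, in 4 control libraries treated with DMSO and 4 libraries treated with cycloheximide at 1 µg/ml for 3 hours. Cycloheximide stops the ribosome during elongation. The members were thus chosen by the authors' own call of lost accessibility, a measured result for which no test is given here, and by position. The list gives positions without a height, a fold change or a value per library, so the depth and the replicate error behind a region are unknown, and no marker of the cell type could be read from it.

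Open chromatin inside a gene but away from its start is often an enhancer, a stretch of DNA to which transcription factors bind and from which they act on a promoter. Enhancers can lie in the introns of the gene they act on or of another gene. In embryonic stem cells many such elements are bound by Oct4, Sox2 and related factors. A region inside a gene is therefore described by its host, and the host need not be the gene it acts on.

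The 236 regions lay in 227 genes, which is 0.455% of the 49943 annotated genes. Protein-coding genes held 192 regions, and 43 others lay in genes for long non-coding RNAs (lncRNAs), 1 of them also in the pseudogene Gm14412. The single remaining region lay in the pseudogene Gm17821. Most regions, 227, were inside 1 gene, while 8 were inside 2 genes and 1 was inside 3. The region in 3 genes, at chr7:84247855-84248722, lay in Arnt2, which encodes a bHLH-PAS transcription factor, and in the lncRNA genes LOC117997403 and Gm26708. Protein-coding hosts numbered 176, or 0.804% of the 21887 protein-coding genes. Of protein-coding genes over 100 kb, 4.53% held a lost region. Gained regions lay in 182 protein-coding genes (0.832%).

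A smaller share of lost than of gained regions inside genes overlapped annotated promoters. A RefSeq promoter window, from 250 bases before to 50 bases after an annotated start, was overlapped by 3 of 236 lost regions inside genes (1.27%, Wilson 95% interval 0.433% to 3.67%). Of gained regions inside genes, 26 of 259 did so (10.04%, 6.94% to 14.3%). No share under an even spread over genic sequence was computed, so 1.27% cannot be called low or high against one. The quartiles of width were 272.5 and 703.5 bp for gained and 315.5 and 559.0 bp for lost regions. An effect of width on this overlap was not tested. Lost minus gained came to -8.77 percentage points (odds ratio 0.115; two-sided p = 2.45e-05 by Fisher's exact test, and 0.000122 adjusted over 5 tests). Windows were held for 80.1% of the longest hosts of lost regions and 74.5% of those of gained regions. Among regions with a host that had a window, the counts were 3 of 192 lost and 26 of 198 gained regions. In the first of the 2 sorted blocks of rows that make up each list, the counts were 1 of 50 and 7 of 79, and the adjusted p was 0.328 (Fisher's exact test). This test and the others between the lists treat each region as 1 observation, although regions in the same gene share their source.

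Of the 3 promoter windows that a lost region overlapped, those at Tgm3 and Gm46358 are shown, with bases of the lost regions themselves. They are written 5′ to 3′ on the strand of the gene (RefSeq, GRCm38.p6), with the bases inside the lost region in capitals.
Tgm3: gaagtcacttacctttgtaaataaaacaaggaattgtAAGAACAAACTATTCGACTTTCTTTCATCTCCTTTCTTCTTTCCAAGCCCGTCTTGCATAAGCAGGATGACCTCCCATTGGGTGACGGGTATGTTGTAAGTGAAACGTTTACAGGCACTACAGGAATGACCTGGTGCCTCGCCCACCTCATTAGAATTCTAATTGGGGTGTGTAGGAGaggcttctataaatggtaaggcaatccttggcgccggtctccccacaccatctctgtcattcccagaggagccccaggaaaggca
Gm46358: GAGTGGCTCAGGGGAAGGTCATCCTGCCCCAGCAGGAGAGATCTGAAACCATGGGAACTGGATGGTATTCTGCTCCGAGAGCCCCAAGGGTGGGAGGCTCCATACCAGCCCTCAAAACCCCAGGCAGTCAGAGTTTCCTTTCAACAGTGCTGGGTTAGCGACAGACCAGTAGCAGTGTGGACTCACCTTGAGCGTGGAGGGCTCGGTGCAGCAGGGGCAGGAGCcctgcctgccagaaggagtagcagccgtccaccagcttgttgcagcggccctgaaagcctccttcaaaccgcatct
The first belongs to Tgm3, a transglutaminase gene of keratinising epithelia, on the plus strand of chromosome 2. The window at chr2:130012090-130012389 contains the whole of the lost region at chr2:130012127-130012304, whose centre lay 125 bp before this annotated start. That start is an internal one, since the centre lay 24.4 kb, or 39.0% of the gene, from the 5′ end of the annotated span. The second, at chr12:76910230-76910529 on the minus strand, belongs to the lncRNA gene Gm46358. The lost region that covers 224 of its bases, chr12:76910306-76910678, is hosted by Fntb, the gene for the beta subunit of protein farnesyltransferase.

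Both windows held 7 CpG dinucleotides, with a GC content of 46.7% at Tgm3 and 59.7% at Gm46358. Of 12 short motifs searched on both strands, the capitals at Tgm3 held the CCAAT box (CCAAT, present in 37.4% of all 32851 promoter windows) and the Tead motif (GGAATG, in 14.7%). Those at Gm46358 held the Esrrb motif (AAGGTCA, in 4.72%). The POU octamer (ATTTGCAT, in 1.74%) was not among the letters of these windows.

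Lost regions were found along the whole length of their host genes. For 189 of the 236 regions the strand of the longest host was known, so that position could be counted from the 5′ end of the gene. With the gene divided into 5 equal parts from the 5′ end on, these held 37, 44, 39, 29 and 40 regions, where an even spread would put 20% in each. The share in the first 20% was 19.6% (Wilson 95% interval 14.5% to 25.8%), and the lowest share was 15.3% (10.9% to 21.2%), between 60% and 80% of the gene. Each of the 5 intervals contained 20%. The median centre lay 47.0 kb from the 5′ end, with quartiles at 18.4 and 132.7 kb. Of gained regions inside genes, 59 of 193 with a known strand (30.6%, 24.5% to 37.4%) lay in the first 20%. The strand was known for 74.5% of gained regions, under the 80% set as the minimum, and no test by strand was made.

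**Figure D1:**
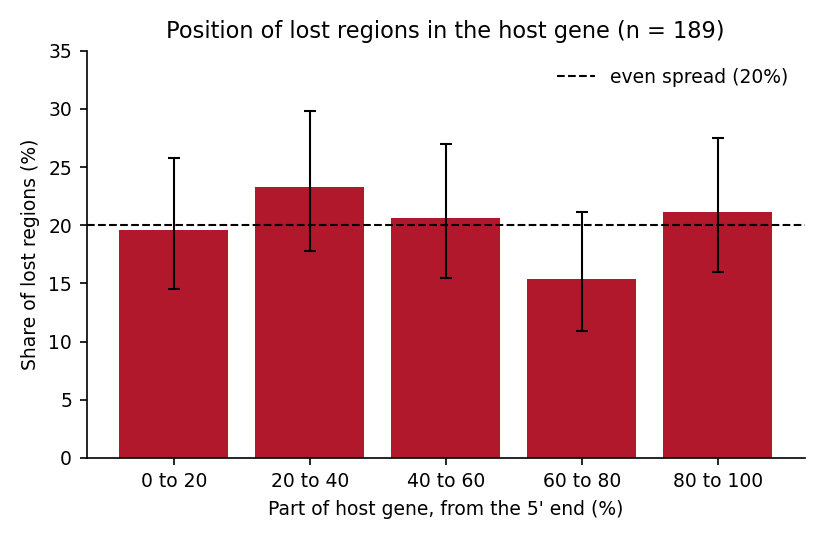
Share of the 189 lost regions with a stranded host that fell in each of 5 equal parts of the host gene, counted from the 5′ end; bars are percentages of regions, error bars are Wilson 95% intervals, and the dashed line marks 20%. All 5 intervals include the line, and the lowest bar is 15.3%.

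Counted from either end of the gene, which needs no strand, 44 of 236 lost regions (18.6%, 14.2% to 24.1%) had their centre in the outer 10% of the host at one end or the other, where an even spread gives 20%. Gained regions inside genes did so in 74 of 259 cases (28.6%, 23.4% to 34.4%). The difference of -9.93 percentage points passed the threshold of 0.05 (two-sided p = 0.0112 by Fisher's exact test, 0.0279 adjusted over the 5 tests). It did not pass when regions overlapping a promoter window were left out of both lists, with 43 of 233 lost and 54 of 233 gained regions (Fisher's exact test, adjusted p = 0.412). With 1 region per host gene the adjusted p was 0.0589, and with regions within 10 kb counted once it was 0.0600 (Fisher's exact test). The first block of rows gave an adjusted p of 0.328 and the outer 20% one of 0.518 (Fisher's exact test).

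Close to an end of a protein-coding host were a few regions. The centre of a region at chr6:137170043-137170921 lay 14 bp inside Rerg, a Ras-related GTPase gene. Adamts3, a procollagen-processing protease gene, had a region at chr5:89674441-89674871, 815 bp from the 3′ end. Mog, the gene of a myelin glycoprotein, had its region at chr17:37011685-37012053, 1129 bp from the 3′ end. Pou5f1, which encodes the pluripotency factor Oct4, held a region of 490 bp at chr17:35509321-35509810, with its centre 3.53 kb from the 5′ end and 1212 bp from the 3′ end of a gene of 4.75 kb. Arnt2, Serpinb9b, Ripk2, Slc17a9 and Ptges, also among the 10 hosts with the nearest end, followed at 2.01 to 3.63 kb. In all, 9 lost regions inside genes had their centre within 1 kb of the outer end of their host, and 10 lost regions outside genes lay within 1 kb of one. On the other side of the rule the nearest were those at Gm42308 and Gm33596, with the centre 37 and 52 bp outside the gene.

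Host genes were long, as is most genic sequence. The longest host of a region had a median length of 115.5 kb, with quartiles at 53.2 and 281.5 kb and a range of 3.61 to 2197 kb. The median base of all genic sequence lies in a gene of 115.1 kb. Hosts over 100 kb held 133 of 236 lost regions (56.4%, Wilson 95% interval 50.0% to 62.5%), and such genes hold 54.0% of the 1246 Mb of genic sequence. Gained regions did so in 150 of 259 cases (57.9%, 51.8% to 63.8%), and the difference of -1.56 percentage points was short of the threshold (two-sided p = 0.785 by Fisher's exact test). The difference depended on the limit: hosts over 200 kb held 85 lost and 117 gained regions, or -9.16 percentage points (Fisher's exact test, p = 0.0440, adjusted p = 0.0550), and hosts over 50 kb held 180 and 187, or 4.07 points (Fisher's exact test, p = 0.307). Per 100 Mb of genic sequence there were 18.9 lost regions. The rate was 13.2 in genes up to 20 kb (exact Poisson 95% interval 7.93 to 20.6, counting error only), 21.7 between 50 and 100 kb (15.9 to 28.9) and 17.2 in genes over 500 kb (12.0 to 23.9). These intervals overlap.

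**Figure D2:**
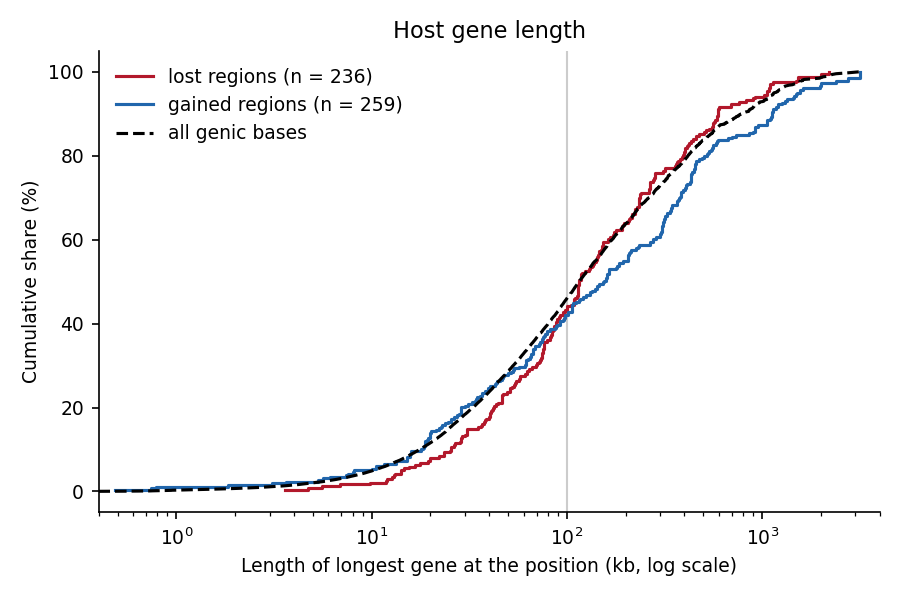
Cumulative share of lost regions inside genes (n = 236), gained regions inside genes (n = 259) and all genic bases, by the length in kb (log scale) of the longest gene at each position; the grey line marks 100 kb. The lost curve runs close to that of genic bases from 100 kb upward, with medians of 115.5 and 115.1 kb, and lies below it among shorter genes, where genes up to 20 kb hold 8.05% of lost regions and 11.6% of genic bases.

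The 10 longest protein-coding hosts included Lsamp, Macrod2, Rbfox1, Magi2, Opcml, Anks1b, Asic2, Nrg1 and Gpc6, from 2197 kb down to 1055 kb. Lsamp and Opcml encode adhesion proteins anchored in the neuronal membrane, Rbfox1 a splicing factor and Nrg1 a ligand of ErbB receptors. The region in Lsamp, at chr16:42065057-42065318, lay 94.7% of the way along the gene, and that in Opcml, at chr9:28613567-28614368, 72.6%. The region in Asic2, an acid-sensing ion channel gene, lay at 15.1%. Their distance to the nearer gene end ran from 116.5 kb in Lsamp to 871.6 kb in Macrod2. No expression data were at hand for these genes.

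Among the hosts, 15 genes, 13 protein-coding and 2 lncRNA genes, held 2 or more lost regions, with 34 regions among them. The 13 make 0.0594% of protein-coding genes. Of all 15, 12 held 2 regions, 2 held 3 and 1 held 4. Their lengths ran from 46.5 to 1998 kb for the protein-coding genes, with a median of 267.2 kb. In 8 genes the closest regions lay within 10 kb of each other, and in 7 they lay farther apart. Of those 7, 4 were genes over 500 kb. With regions within 10 kb counted once, 9 genes held 2 or more.

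Tns3 had the most lost regions. It encodes tensin 3, which links integrins to actin at focal adhesions. Its 4 regions were chr11:8569274-8570033, chr11:8575603-8576193, chr11:8587104-8587725 and chr11:8589131-8589592, with widths of 760, 591, 622 and 462 bp. They sat within 20.3 kb of a gene of 233.1 kb, between 75.4 and 95.1 kb from its 5′ end. The gaps between neighbours ran from 1405 to 10910 bp. No gained region lay in Tns3.

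Sgms1 and Stx3, both on chromosome 19, held 3 regions each. Sgms1 encodes sphingomyelin synthase 1, a Golgi enzyme. Its regions at chr19:32261080-32261223 and chr19:32261300-32261461 were 144 and 162 bp wide and 76 bp apart, near the middle of the gene (48.2% and 48.1% from the 5′ end). The other, at chr19:32172474-32172800, was 88279 bp away from this pair. Stx3 encodes syntaxin 3, a membrane fusion protein, and is the shortest protein-coding gene of the group. Its regions at chr19:11807167-11807529, chr19:11807972-11808215 and chr19:11813830-11814361 lay 7.47 to 14.2 kb from the 5′ end, in the first 30.6% of the gene.

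Tet2, whose product oxidises 5-methylcytosine in DNA and which belongs to the listed pluripotency genes, held 2 regions. These were chr3:133518515-133519180 and chr3:133524479-133524993, 5298 bp apart and 26.3 and 20.4 kb, in that order, from the 5′ end of a gene of 81.5 kb. Manba, the gene of lysosomal beta-mannosidase, held the closest pair among protein-coding genes after Sgms1, at chr3:135546006-135547068 and chr3:135547166-135547655 with 97 bp between them. In Anks1b the pair was 4754 bp apart, and in Ppp1r9a, which encodes the actin-binding protein neurabin, 6492 bp. In the lncRNA gene Gm20758 it was 131 bp apart.

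**Figure D3:**
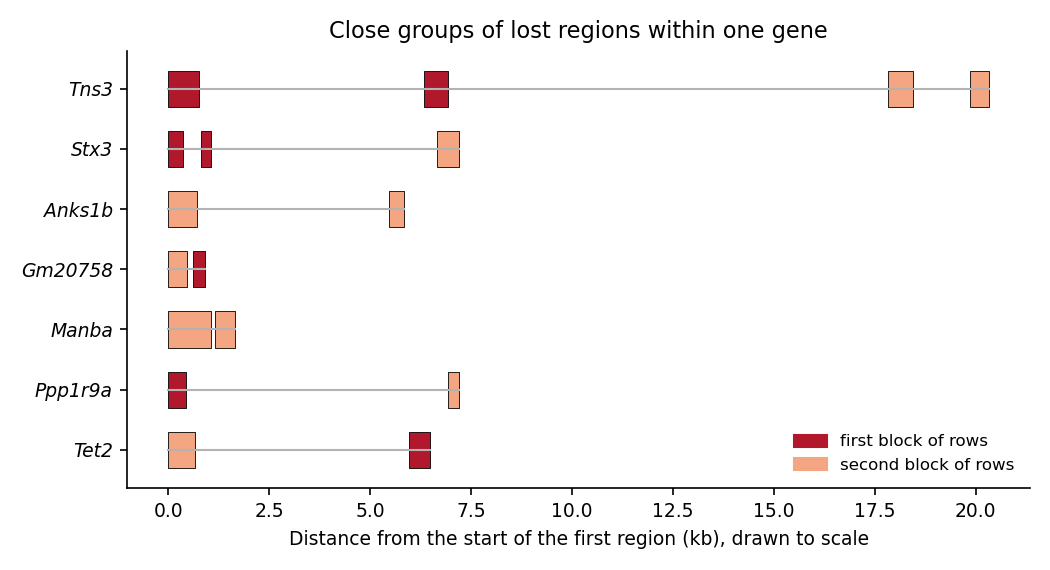
Lost regions of the 7 genes in which all regions lie within 20.3 kb of each other and the closest are within 10 kb, drawn to scale in kb from the start of the first region; the colour gives the block of rows of the authors' list. The Tns3 regions span 20.3 kb and the Gm20758 pair 0.908 kb, and 5 of the 7 genes have regions from both blocks.

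Other genes with several regions held them far apart. Slc9a9, the gene of an endosomal sodium/proton exchanger, held 1 region at 0.939% and 1 at 74.8% of its length, 413961 bp apart. In Macrod2, which encodes an ADP-ribose hydrolase, the distance was 311038 bp, and in Rbfox1 it was 208075 bp. Crybg3, Dock4, Slit3 and LOC117997403 had gaps between 25266 and 62803 bp. Dock4 encodes an activator of small GTPases and Slit3 a secreted guidance protein.

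**Figure D4:**
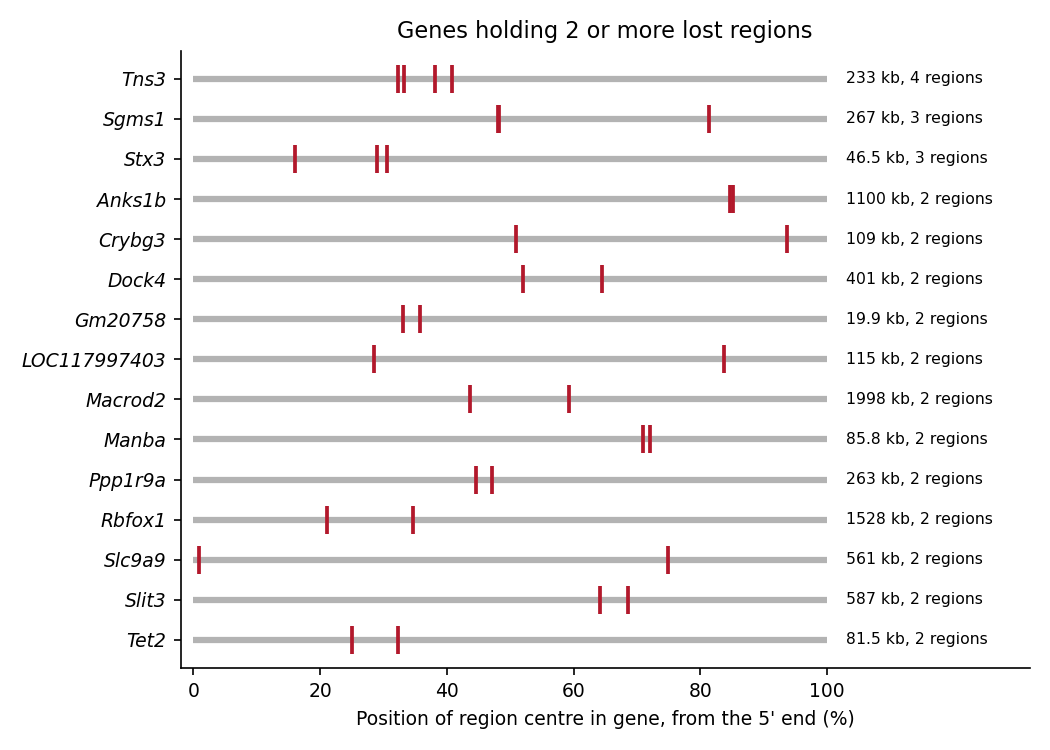
The 15 genes with 2 or more lost regions, each drawn as a grey bar from its 5′ end (0%) to its 3′ end (100%), with red ticks at the centres of lost regions and the gene length in kb at the right. On this scale the ticks of Anks1b (84.7% and 85.2%) and Manba (71.0% and 72.0%) are close together, while those of Slc9a9 stand at 0.939% and 74.8%.

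Of 195 genes in 10 lists drawn up for embryonic stem cells, 4 hosted a lost region (2.05%, beside 0.804% of all protein-coding genes), and 5 hosted a gained region. The lists were chosen with earlier results of these data known, so no test was made and no excess is read from these shares. The 195 listed genes have a median length of 42.4 kb, against 17.2 kb for all protein-coding genes. The lists differ in this. The median was 11.25 kb for pluripotency factors and 8.01 kb for germ layer and trophoblast markers, both below 17.2 kb. Medians of the other lists ran from 39.5 to 101.8 kb. Hosts of a lost region were Pou5f1 and Tet2 of 26 pluripotency factors and Tns3 of 24 focal adhesion and actin genes. The last host was Eed, of 30 chromatin remodelers and modifiers. Eed encodes a core subunit of Polycomb repressive complex 2, and its region of 622 bp at chr7:89975530-89976151 lay 5.14 kb from the 5′ end. None of 12 genes of LIF and JAK-STAT signalling, 18 of FGF and ERK signalling, 17 of WNT signalling, 20 of TGF-beta, Nodal and BMP signalling or 14 of Hippo signalling hosted one. The same held for 18 genes of mTOR and translation control and for 16 germ layer and trophoblast markers.

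The share of regions inside protein-coding genes was 81.4% of lost regions inside genes (75.9% to 85.8%) and 73.0% of gained ones (67.3% to 78.0%). The difference of 8.38 percentage points missed the threshold once adjusted (two-sided p = 0.0324 by Fisher's exact test, 0.0539 adjusted) and so did 6 of the 7 alternatives. The alternative with the shortest host gene could not change these counts. With 1 region per host gene the difference was 5.49 points (Fisher's exact test, adjusted p = 0.299), and in the first block of rows 4.05 points (adjusted p = 0.836, Fisher's exact test). On autosomes alone it was 8.74 points and passed (Fisher's exact test, adjusted p = 0.0397). The lncRNA hosts numbered 48, which is 0.377% of lncRNA genes. Regions in lncRNA genes had a median host length of 38.1 kb and those in protein-coding genes 148.4 kb.

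**Figure D5:**
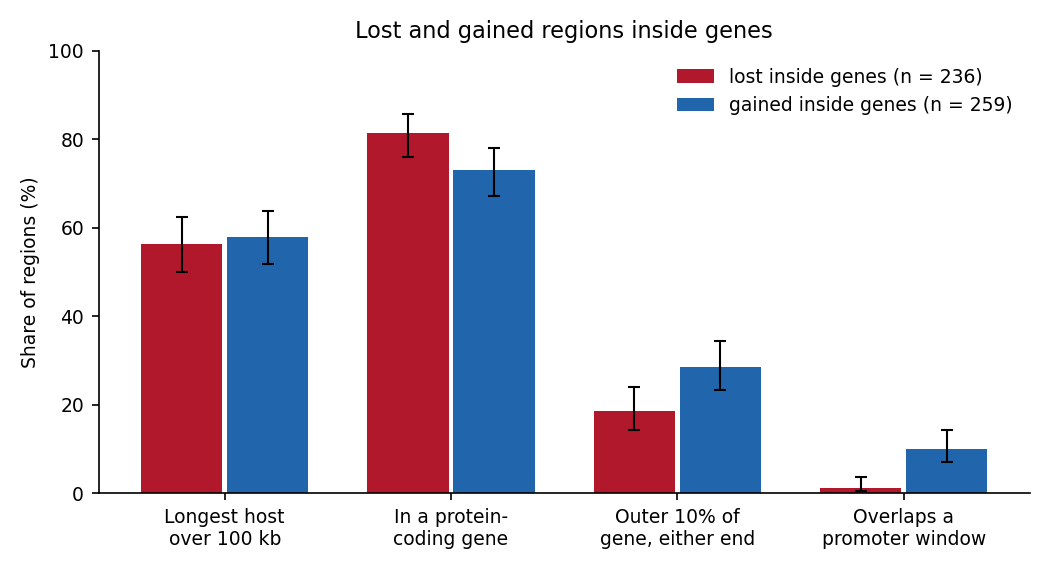
Shares in percent of lost (n = 236) and gained (n = 259) regions inside genes with a host over 100 kb, inside a protein-coding gene, with the centre in the outer 10% of the host at either end, and overlapping a promoter window; error bars are Wilson 95% intervals. The intervals are apart for promoter windows alone, at 1.27% of lost and 10.04% of gained regions.

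Regions of both lists were held by 10 genes, that is 10 of the 227 hosts of lost regions (4.41%) and of the 255 hosts of gained regions (3.92%). Of all protein-coding genes, 0.804% held a lost region and 0.832% a gained one, and of those over 100 kb 4.53% held a lost region. The 10 genes had a median length of 514.9 kb, and no share among genes of like length was computed. Among the 10 were Vmn2r1, Sgms1, Gpc6, Macrod2, Foxp1, Magi2 and the lncRNA genes 6530403H02Rik and A330008L17Rik. Of the 10 genes, 5 were over 500 kb. The lost and gained regions nearest to each other were 31.0 kb apart in Vmn2r1, a pheromone receptor gene of a large family, and 40.1 kb apart in Sgms1, where the gained region was chr19:32131820-32132339. In 5 of the 10 genes the smallest distance was over 100 kb, up to 340.5 kb in Magi2. Both lists come from the same libraries, so the overlap was not tested.

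The width of the regions had a median of 434.5 bp inside genes, with quartiles at 315.5 and 559.0 bp, and 441.0 bp outside. Widths over 500 bp were found for 81 of 236 regions inside genes (34.3%) and 85 of 218 outside (39.0%), and the difference of -4.67 percentage points was short of the threshold (two-sided p = 0.330 by Fisher's exact test). In the first block of rows the difference was -18.5 points (10 of 50 against 20 of 52; Fisher's exact test, p = 0.0514). The widest region inside a gene spanned 1360 bp at chr2:135072130-135073489 in Plcb1, which encodes a phospholipase C activated by G proteins. The next spanned 1237 bp in the lncRNA gene Gm35601 and 1142 bp in Ctbp2, the gene of a transcriptional corepressor. The narrowest spanned 96 bp. No annotated miRNA hairpin overlapped a lost region inside a gene.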

How the data were processed

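The series holds 14 libraries, grouped by their titles, of which 8 ATAC-seq libraries are named as the source of the lists. The other 6, for H4K16ac and its inputs, were not used here. The authors deposited the start and end of each region that gained or lost accessibility, without a score, count or p-value, per the files. The submitters' processing notes name Bowtie2 2.2.4 and SAMtools and the builds mm10, mm9 and GRCm38, with no role. The peak caller, threshold and test are not given in the sources used here, and sequencing depth is unknown. Positions were read as GRCm38 and are given 1-based.

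Genes were those of RefSeq GRCm38.p6 on 21 chromosomes. Strand came from the RefSeq promoter windows, matched by gene ID, which 79.9% of protein-coding genes have. Where a centre lay in several genes, the longest was the host. Shares were compared by Fisher's exact test, two-sided, with Benjamini-Hochberg adjustment over 5 tests, and intervals are Wilson 95% intervals. The tests of host length and gene ends were run on simulated region lists, with and without a planted difference. These lists held independently placed regions and were too few to measure an error rate. The other 3 tests were not run on simulated lists. Without a genome, the exon, GC and motif comparisons over regions were not run. A check of promoter class over hosts was void, since 79.5% of protein-coding hosts have a window. The tests on gene ends and promoter windows were added after the files were seen. Members, motifs and gene lists were chosen with earlier results of these data known. Named are genes with 2 or more regions, the 10 longest protein-coding hosts, the 10 nearest to a gene end, the 3 widest regions and listed genes. Of these and of the overlapped promoter windows, some results are not reported here. Fntb, genes with both lists, and the lncRNA genes and families of the closing section, were named after their values were seen. Python 3.11.15, scipy 1.17.1 and pandas 2.3.3 were used.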

Additional observations from a re-analysis of the deposited data

How the results depend on the processing

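Of 61 values recomputed for 7 results, 49 stayed on the same side of zero and of the threshold (or, without a test, near the reported value), 6 weakened, 1 became stronger, 3 moved and 2 reversed. The 49 include values that could not change: taking the shortest host gene leaves the counts for protein-coding genes and promoter windows as they were. In the first block of rows, with 50 lost and 79 gained regions inside genes, the difference in hosts over 100 kb was 0.304 points, in the outer 10% -10.6 points and in promoter windows -6.86 points, and 3 genes held 2 or more lost regions. There the share in protein-coding genes differed by 4.05 points and that of widths over 500 bp by -18.5 points. With limits of 50 and 200 kb, the difference in long hosts was 4.07 and -9.16 points. None of these values of long hosts, protein-coding genes or width passed the threshold after adjustment. The outer 10% gave -9.23 points with 1 region per host gene, -9.28 with regions within 10 kb counted once and -4.72 without promoter windows, and the outer 20% gave -4.03. The share in protein-coding genes on autosomes differed by 8.74 points. The first 10% of the gene held 8.47% of lost regions, and 9 genes held 2 or more lost regions once neighbours within 10 kb were counted once. The cause was not tested. Alternatives for exons, GC content and motifs over regions were not run, since no genome was at hand. No paired analysis was possible because the lists hold no value per library, and no replicate could be left out for the same reason. Depth is unknown, so its effect on any region could not be examined.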

Other observations

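Host genes were also grouped by the stem of their symbol, after the hosts had been seen, so that no test was made. Stems with 2 hosts among at most 30 members were Plcb (Plcb1 and Plcb4, of 4), Sipa (Sipa1l1 and Sipa1l2, of 4) and Adamts (Adamts3 and Adamts9, of 19). These families are long, with median gene lengths of 189.8 kb for Plcb, 175.3 kb for Sipa and 114.0 kb for Adamts. Of all protein-coding genes 0.804% hosted a lost region, and of those over 100 kb 4.53%, and nothing particular to the families is read from their counts.

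Among the lncRNA hosts were genes named for embryonic stem cells, picked after the hosts had been seen, so that no test was made. Of 18 Platr genes, whose name stands for pluripotency-associated transcript, Platr3 and Platr21 held a lost region and 0 held a gained one, beside 0.377% of lncRNA genes with a lost region. The lengths of the Platr genes were not set beside those of all lncRNA genes, and nothing particular to them is read from this count. The Platr3 region, chr2:135650763-135651443, lay 82.6% of the way along a gene of 5.55 kb. The Platr21 region, chrX:139317403-139317825, lay at 34.1% of a gene of 117.5 kb. Lncenc1, named as expressed in embryonic stem cells, held a region at chr13:97495309-97495861, 96.7% of the way along the gene. Pvt1, the lncRNA neighbour of Myc, held one of 978 bp at chr15:62078987-62079964, 41.5 kb from the nearer gene end.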
